A study of Mus musculus with 6 samples.

Results

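The transcripts examined were 9 genes of the mitochondrial cell death pathway, chosen by name and matched exactly to the gene symbols of the count table: Bcl2, Bcl2l1, Mcl1, Bax, Bak1, Bid, Bad, Bcl2l11 and Xiap. All 9 were among the 10520 genes of the table, and all 9 were among the 8969 genes that passed the filter on low counts and were tested. They were measured in E0771 cells, a mouse breast adenocarcinoma line of C57BL/6 origin, that had been stably transduced with a lentiviral vector and selected with puromycin. The 3 shControl libraries came from cells with the control vector, listed in the methods as an empty pLKO.5-puro plasmid, and the 3 shLmna libraries from cells with a plasmid that encodes an shRNA against lamin A/C. The control thus shared the transduction and the selection but held no shRNA insert, and all 3 shLmna libraries carried the same shRNA name in their labels. RNA was read by MARS-seq, a 3' end method in which a unique molecular identifier (UMI) counts each captured RNA molecule once. The labels do not say whether the replicates were separate cultures, so p-values measure the spread between these libraries, which may be technical. In bulk RNA, fewer cells that make a transcript and less of it per cell cannot be told apart.

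BCL2 proteins decide whether the outer membrane of the mitochondrion is opened. Bax and Bak are the effectors that form the pore. Bcl-2, Bcl-xL (the product of Bcl2l1) and Mcl-1 hold them in check. BH3-only proteins such as Bid, Bad and Bim (the product of Bcl2l11) relieve this restraint or activate the effectors directly. Once the membrane is open, cytochrome c and antagonists of the inhibitor of apoptosis proteins reach the cytosol, where caspases are activated, and Xiap is the inhibitor that binds active caspases directly. Much of this control acts on the proteins, through their cleavage, phosphorylation, binding and turnover, which RNA counts do not show.

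The libraries held from 1846208 to 3242051 UMIs, and the 9 genes together took between 0.0994% and 0.134% of them. Levels are given as CPM, the UMI count scaled to a common library size in counts-per-million units. Lmna, the shRNA target, stood at 810, 874 and 936 CPM in the shControl libraries and at 388, 376 and 379 CPM in the shLmna libraries (replicates 1, 2 and 3 throughout), a log2 fold change of -1.20 (standard error 0.13, adjusted p = 3.5e-05, edgeR). Of 8 epithelial markers 5 were listed, with a summed level of 276 to 330 CPM in shControl and 295 to 319 in shLmna, mostly from Krt8. Of 5 melanocyte markers 4 were listed (Mlana, Dct, Pmel and Tyrp1). They summed to 718 CPM in shControl replicate 3 and to 581 in shLmna replicate 2, against 0.375 to 4.71 in the other 4 libraries, and Dct had no UMI in 3 of those 4. The study also worked with a melanoma line, and both libraries stood apart from the rest in this way, 1 in each group. The log2 fold changes of the 9 genes, the counts of calls and the ratios below are therefore also given without this pair, a choice made after the data were seen. The order of levels and the correlations were computed with all 6 libraries only. The summed level of the 2 listed fibroblast markers of 5 (Pdgfra and Pdgfrb) was 14.3 to 18.1 in shControl and 23.9 to 24.5 in shLmna. That of the 2 listed leukocyte markers of 6 (Cd68 and Cd74) was 10.1 to 14.5 and 6.61 to 8.99. The part of these markers in the results was not tested.

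In the lamin A/C knockdown cells, the transcripts of both pore-forming effectors were lower in every library than in any shControl library, that of Bcl2l1 was higher in every library, and none of these differences passed the test across all genes. Of the 9 transcripts, 0 had an adjusted p below 0.05 in edgeR's quasi-likelihood test, against 13.7% of all tested genes (7.96% higher and 5.78% lower in shLmna), and 0 also passed in DESeq2, in limma-voom and without both melanocyte marker libraries. By the study's criteria, which add an absolute log2 fold change above 1 and a mean normalized count above 5, the count was again 0, against 5.71% of all tested genes. At an unadjusted p below 0.05 there were 4 of the 9 (Bcl2l11, Bcl2l1, Bak1 and Bax) in each of the 3 tools, against 28.4% of all tested genes in edgeR. The groups did not overlap for 3 of the 9 (33.3%), 1 of them higher and 2 lower in shLmna. Among all tested genes 32.5% did not overlap, 16.8% higher and 15.7% lower, so the share in the family lay near that of the genes at large. The log2 fold changes of the family ran from -0.73 to 0.63 with a median of 0.22, against a median of 0.0033 over all tested genes. For 6 of the 9, all but Bcl2, Bcl2l11 and Xiap, the 95% interval of the fold change lay within a 2-fold change in either direction.

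**Figure D1:**
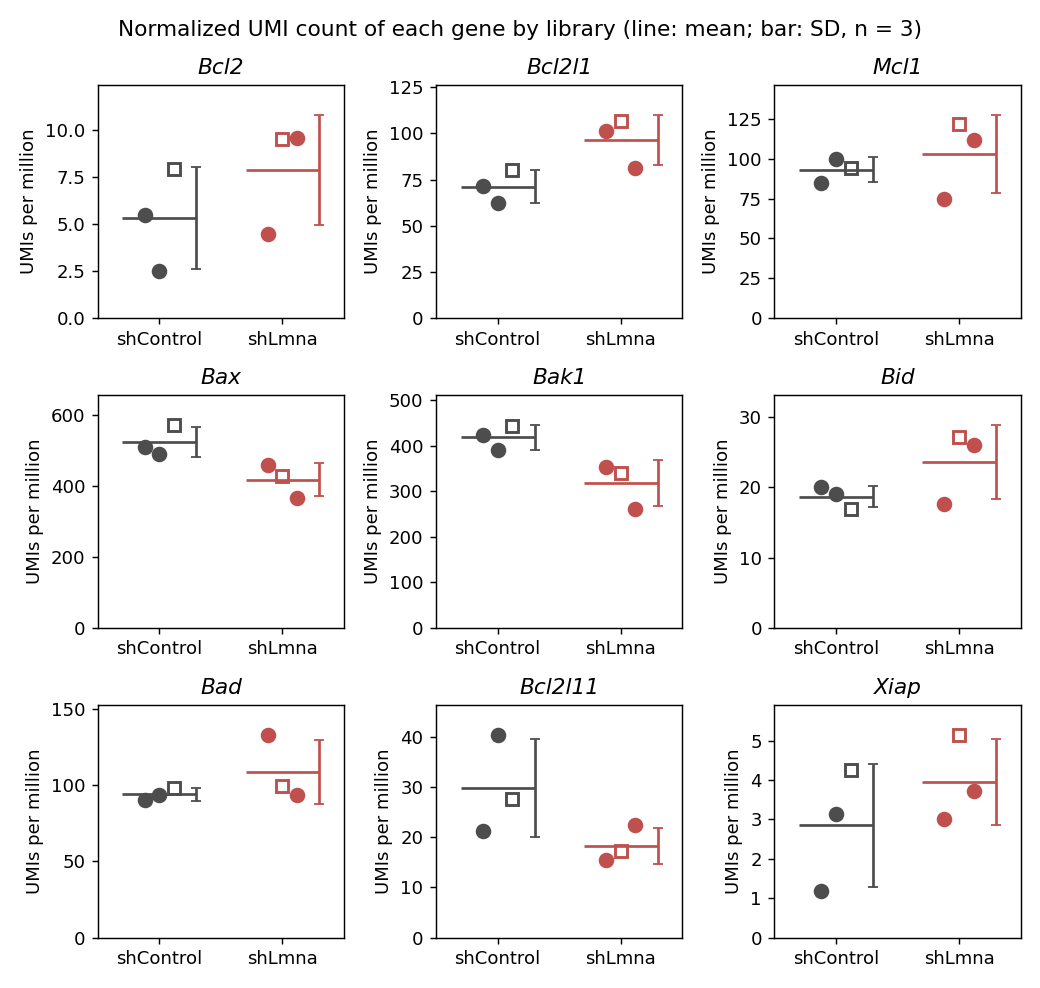
Normalized level in CPM (vertical axis, from 0) of each of the 9 genes in the 3 shControl (grey) and 3 shLmna (red) libraries, with the group mean as a line and the SD (n = 3) as a bar. Open squares are the 2 libraries with melanocyte markers, shControl replicate 3 and shLmna replicate 2; the groups are apart for Bcl2l1, Bax and Bak1 and overlap for the other 6 genes.

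The promoters of the 3 genes whose groups did not overlap are shown here for orientation, as 250 bases before and 50 bases after a RefSeq transcription start in GRCm38.p6. That of Bax lies at chr7:45466849-45467148, that of Bak1 at chr17:27028578-27028877 and that of Bcl2l1 at chr2:152831679-152831978, all on the reverse strand, and the last is the outermost of 3 annotated starts of Bcl2l1. Capitals mark the GC box GGGCGG, the CCAAT box CCAAT and the E-box CACGTG, searched on both strands.
Bax: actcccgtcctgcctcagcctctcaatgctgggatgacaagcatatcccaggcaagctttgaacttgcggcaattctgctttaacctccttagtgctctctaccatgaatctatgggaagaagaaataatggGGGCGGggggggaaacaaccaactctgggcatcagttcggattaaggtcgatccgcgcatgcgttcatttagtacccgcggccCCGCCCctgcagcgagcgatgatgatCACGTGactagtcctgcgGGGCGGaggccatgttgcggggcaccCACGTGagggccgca
Bak1: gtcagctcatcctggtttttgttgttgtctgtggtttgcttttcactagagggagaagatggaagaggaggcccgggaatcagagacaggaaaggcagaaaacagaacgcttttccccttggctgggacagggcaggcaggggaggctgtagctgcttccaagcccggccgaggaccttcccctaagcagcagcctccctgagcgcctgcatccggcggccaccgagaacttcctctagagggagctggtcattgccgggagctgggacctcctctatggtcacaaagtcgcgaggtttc
Bcl2l1: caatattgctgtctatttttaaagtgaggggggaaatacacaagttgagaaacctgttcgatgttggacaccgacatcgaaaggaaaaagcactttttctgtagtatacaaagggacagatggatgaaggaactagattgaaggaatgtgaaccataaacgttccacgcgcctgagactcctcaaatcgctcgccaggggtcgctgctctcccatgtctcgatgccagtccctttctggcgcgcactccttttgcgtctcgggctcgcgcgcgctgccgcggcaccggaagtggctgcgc
The Bax promoter held 3 GC boxes and 2 E-boxes, none of which overlapped another, while the windows of Bak1 and Bcl2l1 held none of the 3 motifs. Over all 32851 promoter windows of this length, 35.7% held a GC box, 37.4% a CCAAT box and 7.15% an E-box. These are matches of letters, and no binding was measured.

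Among the effectors, Bax was the most abundant transcript of the family. It lies on chromosome 7 of GRCm38 (45461697 to 45466898). The shControl libraries held 1300, 1568 and 1078 UMIs of Bax for replicates 1, 2 and 3 and the shLmna libraries 1226, 1164 and 691, which are 510, 490 and 572 CPM against 459, 427 and 367 after normalization. Every shLmna library was below every shControl library, and the lowest shControl value exceeded the highest shLmna value by less than the SD of either group. The means were 524 ± 42.6 and 418 ± 46.7 (SD, n = 3 each). The log2 fold change was -0.32 (standard error 0.14, 95% interval -0.62 to -0.026, adjusted p = 0.139, edgeR). With the melanocyte marker libraries left out it was -0.27 (adjusted p = 0.315, edgeR). The counted end of Bax overlaps an exon of Gm45808 on the same strand, so that its counts may include that gene.

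Bak1, the other effector, lies on chromosome 17 (27019810 to 27029009). Its levels were 423, 390 and 442 CPM in shControl and 354, 339 and 260 CPM in shLmna, from raw counts of 1079, 1246 and 834 against 944, 924 and 489. Again all 3 shLmna libraries lay below the shControl libraries, with the lowest value in shLmna replicate 3, as for Bax. The means were 418 ± 26.8 and 318 ± 50.5 (SD, n = 3 each), a log2 fold change of -0.39 (standard error 0.15, 95% interval -0.71 to -0.080, adjusted p = 0.0914, edgeR). Without the melanocyte marker libraries it was -0.40 (adjusted p = 0.139, edgeR).

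Of the 3 prosurvival genes, Bcl2l1 was the one with groups apart. It lies on chromosome 2 (152780668 to 152831728) and had 71.4, 62.2 and 80.1 CPM in shControl and 101, 107 and 81.4 in shLmna. The gap was narrow, since shLmna replicate 3 lay just above shControl replicate 3, one of the libraries with melanocyte markers. The means were 71.2 ± 8.95 and 96.5 ± 13.4 (SD, n = 3 each), which is a log2 fold change of 0.45 (standard error 0.16, 95% interval 0.099 to 0.80, adjusted p = 0.0855, edgeR). With shControl replicate 3 left out, the log2 fold change was 0.53 and passed (adjusted p = 0.0461, edgeR). Without both melanocyte marker libraries it was 0.46 and did not (adjusted p = 0.118, edgeR).

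Mcl1, a prosurvival gene whose protein is turned over quickly, lies on chromosome 3 (95658788 to 95663176). It had 84.7, 100 and 94.4 CPM in shControl and 75.0, 122 and 112 in shLmna. The shLmna libraries held both the lowest and the highest values, so the groups overlapped throughout. The log2 fold change was 0.14 (95% interval -0.25 to 0.52, adjusted p = 0.662, edgeR). It was -0.0049 without shLmna replicate 2 and 0.0022 without both melanocyte marker libraries, so no direction is given for Mcl1.

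Bcl2, the founding member, was close to the limit of detection. It lies on chromosome 1 (106538178 to 106714274) and had 14, 8 and 15 UMIs in shControl and 12, 26 and 18 in shLmna, or 5.49, 2.50 and 7.96 against 4.50, 9.55 and 9.57 CPM. The groups overlapped, and the highest shControl value came from a library with melanocyte markers. The log2 fold change of 0.63 had a standard error of 0.43 and a 95% interval of -0.29 to 1.55 (adjusted p = 0.364, edgeR). At this depth the interval held both no change and a 2-fold rise. The log2 fold change was 0.79 without both melanocyte marker libraries and 0.23 without shControl replicate 2.

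Bcl2l11, the gene of the BH3-only protein Bim, had the smallest p of the 9. It lies on chromosome 2 (128126038 to 128162547), with 54, 129 and 52 UMIs in shControl and 41, 47 and 42 in shLmna. Normalized, these were 21.2, 40.3 and 27.6 CPM against 15.4, 17.3 and 22.3. The groups overlapped at shControl replicate 1 and shLmna replicate 3, and shControl replicate 2 stood above all other libraries. The means were 29.7 ± 9.75 and 18.3 ± 3.60 (SD, n = 3 each). The log2 fold change was -0.73 (standard error 0.26, 95% interval -1.28 to -0.18, adjusted p = 0.0760, edgeR). It depended on the shControl libraries, with -0.42 (adjusted p = 0.398, edgeR) without shControl replicate 2, -0.94 (adjusted p = 0.0264) without replicate 1 and -0.79 (adjusted p = 0.0450) without replicate 3. Without both melanocyte marker libraries it was -0.75 (adjusted p = 0.102, edgeR). In the annotation, 4 of the 5 coding 3' ends of Bcl2l11 lie outside the window taken here as its counted end, and transcripts that stop there may have been missed. The same limit holds for 6 of 8 ends of Bcl2l1, 2 of 3 of Xiap and 3 of 4 of Lmna. It also holds for 1 end each of Bcl2, Mcl1, Bax and Bid.

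Over the 6 libraries, 3 other genes of at least 10 CPM followed Bcl2l11 most closely. Their Pearson's r of log2 values with Bcl2l11 was 0.994 for Hagh, 0.977 for Sec23a and 0.977 for Ice1, out of 7344 genes compared. With 6 points, 67 of these genes had an r above 0.9. None of the 3 passed the test (adjusted p = 0.217, 0.255 and 0.191, edgeR).

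Bid and Bad, the other BH3-only genes of the family examined here, had higher means in shLmna, with groups that overlapped. Bid, whose protein is cut by caspase-8 and links death receptors to mitochondria, lies on chromosome 6 (120891930 to 120916853). It had 51, 61 and 32 UMIs in shControl and 47, 74 and 49 in shLmna, or means of 18.7 ± 1.55 and 23.6 ± 5.22 CPM (SD, n = 3 each). After normalization shLmna replicate 1 lay within the shControl range and the other 2 shLmna libraries above it. The log2 fold change was 0.32 (95% interval -0.16 to 0.81, adjusted p = 0.381, edgeR), or 0.14 without both melanocyte marker libraries. The counted end of Bid overlaps an exon of Bcl2l13 on the opposite strand, and the methods do not state whether strand was used, so that reads of this pair may not be separated.

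Bad, a sensitizer whose protein is kept inactive by phosphorylation and binding to 14-3-3 proteins, lies on chromosome 19 (6941861 to 6951899). Its shControl libraries lay close together at 89.8, 93.5 and 98.2 CPM, and the shLmna libraries had 133, 99.5 and 93.6. Only shLmna replicate 1 was far above the shControl range, and without it the log2 fold change of 0.22 (95% interval -0.13 to 0.56, adjusted p = 0.414, edgeR) was 0.030. It was 0.31 without both melanocyte marker libraries.

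Xiap was the scarcest of the 9. On chromosome X (42059679 to 42109656), it had 3, 10 and 8 UMIs in shControl and 8, 14 and 7 in shLmna, or 1.18, 3.13 and 4.24 against 3.00, 5.14 and 3.72 CPM. The groups overlapped and the log2 fold change of 0.52 (95% interval -0.49 to 1.53, adjusted p = 0.516, edgeR) turned to -0.20 when library-specific trends with the GC content of the 3' end were removed. That end held 30.8% GC, the lowest of the 9, against a median of 47.1% over the tested genes. No direction is given for Xiap at this depth, and it no longer passed the filter on low counts without both melanocyte marker libraries.

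**Figure D2:**
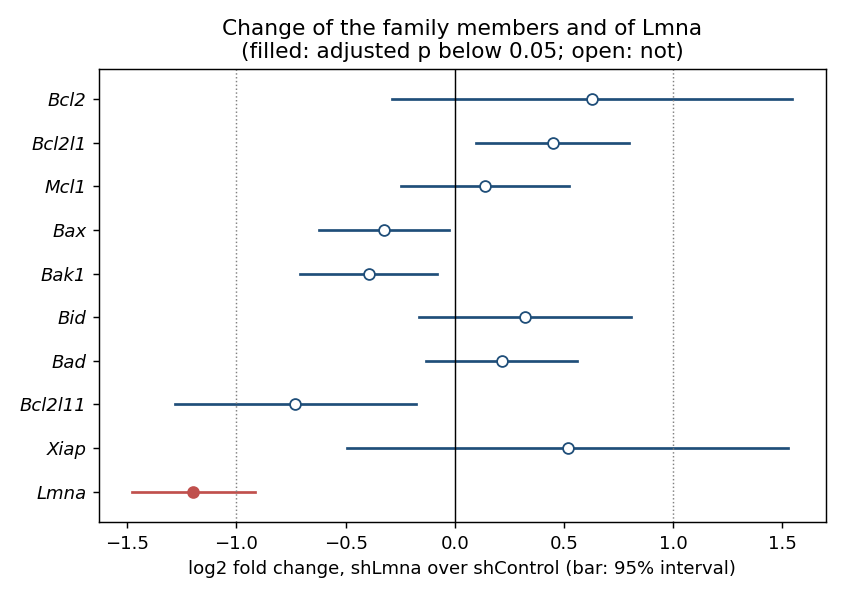
Log2 fold change of shLmna over shControl from edgeR (horizontal axis) with its 95% interval for the 9 genes (blue) and Lmna (red), with dotted lines at a 2-fold change. Only Lmna is filled, at -1.20; the 9 family members, from -0.73 for Bcl2l11 to 0.63 for Bcl2, are open, since their adjusted p was not below 0.05.

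Ordered by level in shControl, the family ran from Bax and Bak1 through Bad, Mcl1 and Bcl2l1 to Bcl2l11, Bid, Bcl2 and Xiap. Each molecule was counted once at its 3' end, so the CPM need no correction for transcript length, although transcripts that end outside the counted window are missed. Bax exceeded Bak1 in 6 of 6 libraries, and Mcl1 exceeded Bcl2l1 in 5 of 6. Bad and Mcl1, at 93.8 and 93.1 CPM in shControl, did not differ beyond their spread, with Bad higher in 3 of 6 libraries. The shControl ranges of Bcl2 and Xiap overlapped too (2.50 to 7.96 and 1.18 to 4.24). Bcl2l11 was above Bid in the 3 shControl libraries and was below it in the 3 shLmna libraries (means of 18.3 and 23.6 CPM). This was the only change of order between the groups. In replicate 1 it rested on close counts, with 54 UMIs of Bcl2l11 and 51 of Bid in shControl and 41 and 47 in shLmna. Neither gene passed the test across all genes.

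A ratio within a library does not depend on how libraries are scaled. The sum of Bcl2, Bcl2l1 and Mcl1 over the sum of Bax and Bak1 was -2.53, -2.42 and -2.47 on the log2 scale in shControl, and -2.17, -1.69 and -1.63 in shLmna. All 3 shLmna libraries lay above the shControl libraries. There were 5.55 counted effector molecules for each counted prosurvival molecule in shControl and 3.56 in shLmna, so the log2 ratio was higher in shLmna by 0.64, or 1.56-fold. Transcripts that end outside the counted window are missed, as for most annotated ends of Bcl2l1, and counts of Bax may include Gm45808. The true proportion of transcripts may therefore differ. The SD of the log2 ratio was 0.056 in shControl and 0.30 in shLmna (n = 3 each). The difference was between 0.50 and 0.81 with each of the 5 genes left out, and was 0.57 without the melanocyte marker libraries. Its parts were a prosurvival sum of 170 ± 11.3 CPM in shControl and 207 ± 28.9 in shLmna, and an effector sum of 942 ± 67.8 and 736 ± 96.6. The prosurvival sums overlapped (162 to 183 and 181 to 238 CPM), while the effector sums were apart, as Bax and Bak1 each were. The summed ratio thus largely restates the values of its members and is no separate result either. The log2 ratio of Bcl2l1 to Bax alone was -2.88 ± 0.082 in shControl and -2.12 ± 0.10 in shLmna (SD, n = 3 each). It was 1.70-fold higher in shLmna, or 1.66-fold without the melanocyte marker libraries. Its groups could not overlap, since those of Bcl2l1 and Bax were apart in opposite directions, so this is no separate result. The ratios are given as descriptions and were not tested.

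**Figure D3:**
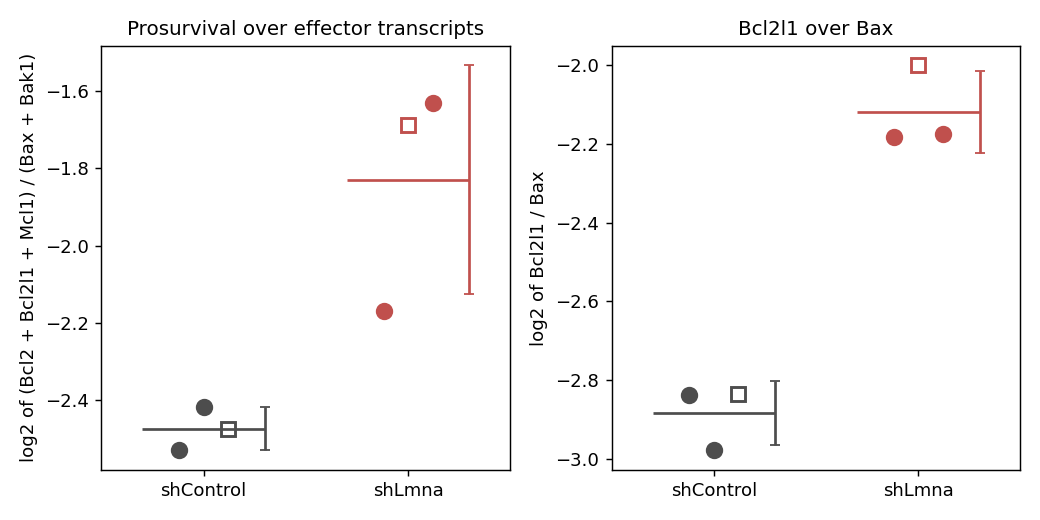
Log2 ratio within each library of the summed prosurvival transcripts (Bcl2, Bcl2l1, Mcl1) over the summed effector transcripts (Bax, Bak1), left, and of Bcl2l1 over Bax, right, with the group mean as a line and the SD (n = 3) as a bar; the axes do not start at 0. Open squares are the libraries with melanocyte markers, and in both panels the 3 shLmna libraries lie above the 3 shControl libraries. On the left the effector sums were themselves apart, as Bax and Bak1 each were, while the prosurvival sums overlapped. On the right the separation follows from the separate groups of Bcl2l1 and of Bax.

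The rest of the apoptosis pathway was read from lists of 79 other symbols, of which 52 were tested. Of the 52, 4 had an adjusted p below 0.05 and were higher in shLmna (Casp2, Bnip3, Bnip3l and Sept4) and 3 were lower (Bbc3, Pmaip1 and Cradd), in all 13.5%, close to the 13.7% of all tested genes. The median log2 fold change of the 52 was -0.023. The 4 higher genes, and no others of the 52, met the study's criteria. In shControl, Casp2 and Bnip3l stayed below the filter's minimum count of 10, and Sept4 had 12, 9 and 8 UMIs. These genes could pass the filter on low counts only with their higher shLmna libraries, so their calls are not independent of it. With no filter the same 4 genes were called higher, but Casp2 reached the 6 UMIs of a listed gene only in shLmna. Without both melanocyte marker libraries, 4 genes were called higher, with Casp9, the initiator caspase of the apoptosome, in place of Bnip3l (log2 fold change 0.88, adjusted p = 0.0472, edgeR), 0 were called lower and 3 met the study's criteria. Casp9 was named after its values were seen, and exons of Cela2a and Ctrc lie opposite its counted end.

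Among the other proapoptotic BCL2 genes, 7 of 12 were tested, of which 2 rose and 2 fell. Bnip3, whose mitochondrial protein acts in mitophagy and cell death and is known as a hypoxia target, had 17, 24 and 18 UMIs in shControl and 83, 102 and 43 in shLmna, or 7.91 ± 1.48 and 30.5 ± 7.31 CPM (SD, n = 3 each). The groups were far apart, with a log2 fold change of 1.98 (standard error 0.26, adjusted p = 0.000187, edgeR). The 3' end of Bnip3 held 35.2% GC, and after the GC correction the log2 fold change was 1.54 (adjusted p = 0.000672, edgeR). On the opposite strand Gm45507 overlaps the counted end of Bnip3, and reads of this pair may not be separated either. Its relative Bnip3l, also a mitophagy receptor, had few UMIs, with 9, 3 and 2 in shControl and 13, 31 and 12 in shLmna. Its log2 fold change of 2.02 (standard error 0.52, adjusted p = 0.0174, edgeR) was 1.37 and did not pass without both melanocyte marker libraries (adjusted p = 0.114). It also failed with shControl replicate 2, shLmna replicate 2 or shLmna replicate 3 left out, and with shControl replicate 1 left out the log2 fold change was 2.88.

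The genes that fell in this list were those of Puma and Noxa, BH3-only proteins known as p53 targets. Bbc3, the gene of Puma, had 35.3, 44.7 and 42.4 CPM in shControl and 28.1, 27.2 and 24.5 in shLmna, with a log2 fold change of -0.61 (standard error 0.19, adjusted p = 0.0410, edgeR). Pmaip1, the gene of Noxa, which binds Mcl-1, had 24.3, 25.6 and 24.4 against 15.4, 17.3 and 13.8, with a log2 fold change of -0.67 (standard error 0.21, adjusted p = 0.0452, edgeR). For both genes the groups did not overlap, but both calls were lost in DESeq2 (log2 fold changes -0.62 and -0.68, adjusted p = 0.0766 and 0.116) and without the melanocyte marker libraries (-0.60 and -0.76, adjusted p = 0.0961 and 0.0594). The call of Bbc3 was lost with any single library left out but shControl replicate 1, and that of Pmaip1 with any but shControl replicate 3. That of Pmaip1 was also lost with the replicate number as a block (adjusted p = 0.0504) and with upper-quartile factors (adjusted p = 0.0503).

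Of 8 tested genes for the apoptosome, caspases and DNA fragmentation, 1 rose. Casp2, which encodes the caspase that the PIDDosome activates, had 3, 2 and 1 UMIs in shControl and 59, 67 and 27 in shLmna. Summed over libraries and corrected for their size, the level was 26.8-fold higher in shLmna, with an exact 95% binomial interval of 12.0 to 74.1 that covers counting error only. The adjusted p was 8.1e-06 (edgeR), and the log2 fold change stayed between 4.34 and 5.00 over all alternatives in which it was tested, left-out libraries included. With a mean count of at least 50 required, it was not tested.

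Cradd, an adaptor that recruits caspase-2, was the 1 gene of 7 tested death receptors and adaptors that passed. It fell from 12.9, 17.8 and 15.9 CPM to 7.87, 9.91 and 8.51, a log2 fold change of -0.83 (standard error 0.26, adjusted p = 0.0473, edgeR). Its call was lost in DESeq2, in limma-voom and without the melanocyte marker libraries (log2 fold changes -0.83, -0.81 and -0.92, adjusted p = 0.128, 0.0529 and 0.0694). It was also lost with upper-quartile factors (adjusted p = 0.0531), with the GC correction and the replicate block together (adjusted p = 0.0614) and with any single library left out but shControl replicate 1. With 1 library left out, the log2 fold change of Cradd ran from -0.96 to -0.71. Cradd passed with the GC correction alone (adjusted p = 0.0480, edgeR).

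Of 9 tested mitochondrial factors and antagonists of the inhibitors, 1 rose. Sept4, which encodes septin 4 and, as another isoform, an antagonist of Xiap, had 4.71, 2.81 and 4.24 CPM in shControl and 17.2, 15.1 and 7.98 in shLmna. These came from few UMIs, with 12, 9 and 8 in shControl and 46, 41 and 15 in shLmna. The groups did not overlap and the log2 fold change was 1.83 (standard error 0.36, adjusted p = 0.00427, edgeR). With 1 library left out it ran from 1.59 to 2.06. The call was then closest to the threshold without shControl replicate 2 (adjusted p = 0.0483, edgeR). The counts do not separate the isoforms.

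In the remaining lists no gene passed. Among 4 tested inhibitors of apoptosis other than Xiap, the smallest p was that of Naip2, which encodes a sensor of bacterial proteins, with a log2 fold change of 0.21 (adjusted p = 0.613, edgeR). It was -0.043 without both melanocyte marker libraries. Birc5, the gene of survivin, was named after its values were seen. Its level was 417, 387 and 425 CPM in shControl and 373, 385 and 410 CPM in shLmna (log2 fold change -0.074, 95% interval -0.35 to 0.20, adjusted p = 0.758, edgeR). The one other prosurvival gene tested, Bcl2l2, had a log2 fold change of -0.29 (adjusted p = 0.435, edgeR), or -0.23 without both melanocyte marker libraries. Of 16 tested regulators of BCL2 proteins, Ywhaz, a 14-3-3 protein, came closest, with a log2 fold change of -0.47 (adjusted p = 0.0533, edgeR). It passed with the replicate number as a block (adjusted p = 0.0325), after the GC correction (adjusted p = 0.0496) and without shControl replicate 3 (adjusted p = 0.0238). It did not pass without both melanocyte marker libraries (-0.47, adjusted p = 0.0779), and without shControl replicate 1 the log2 fold change was -0.36 (adjusted p = 0.190).

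**Figure D4:**
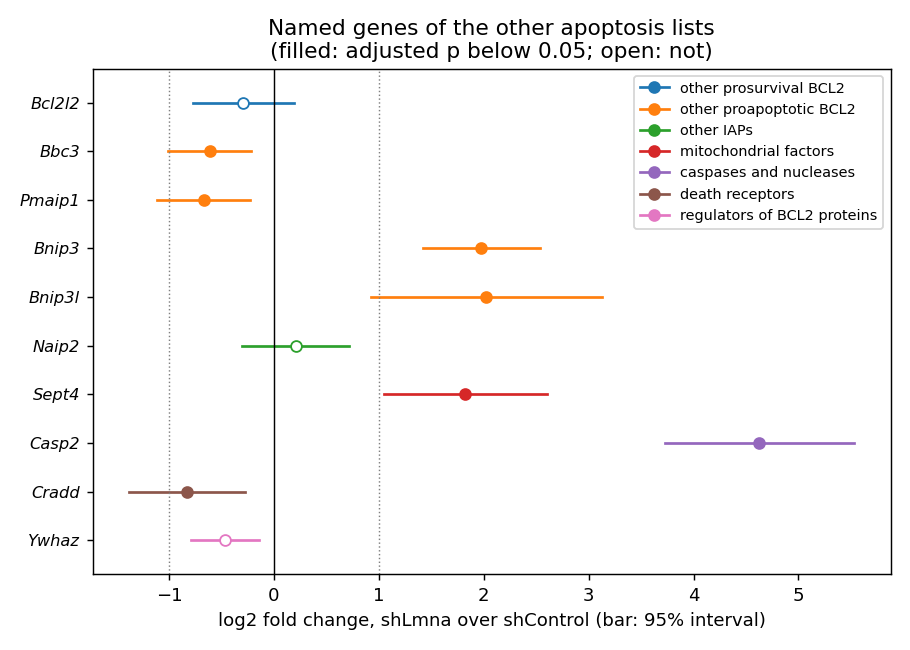
Log2 fold change of shLmna over shControl from edgeR (horizontal axis) with its 95% interval for the 7 other apoptosis genes with an adjusted p below 0.05 (filled) and, for each list without such a gene, the gene with the smallest p (open), coloured by list, with dotted lines at a 2-fold change. Casp2, Bnip3, Bnip3l and Sept4 lie to the right of 0 and Bbc3, Pmaip1 and Cradd to the left.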

How the data were processed

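MARS-seq 3' libraries of E0771 cells, 3 shControl and 3 shLmna, were grouped by their sample labels. The authors trimmed reads with cutadapt, aligned them to mm10 with STAR 2.4.2a, and counted UMIs with HTSeq within 1000 bases upstream and 100 bases downstream of RefSeq 3' ends. The deposited counts are whole numbers without normalization, and each listed gene had 6 or more UMIs in some library. ComBat-corrected values (the batch is not named) and the authors' own DESeq2 comparison, with its fold changes and p-values, were not used.

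Counts were tested in R 4.3.3 with edgeR 4.0.16 (filterByExpr with a minimum count of 10, TMM factors, quasi-likelihood test, Benjamini-Hochberg over 8969 genes, no block). The standard error is the absolute log2 fold change over the square root of F. CPM values use TMM library sizes. Intervals of shares and ratios cover counting error only. DESeq2 1.42.0 and limma 3.58.1 (voom) were alternatives, as were RLE and upper-quartile factors, no filter, a required mean count of 50 or more, a block for replicate number, a loess correction for GC content (span 0.3, degree 2) and each library left out. The fits were checked on simulated counts. Within groups, no 2 libraries were alike within sampling noise (chi-square per degree of freedom 5.11 to 8.28). An exact permutation test of 3 against 3 libraries reaches p = 0.1 at the lowest, so single genes were tested only in the fit over all genes.

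Gene coordinates and 3' ends came from GENCODE M21 (GRCm38), with a transcript matched to 10466 of 10520 genes, and promoters from RefSeq (GRCm38.p6), where all 9 genes were matched. GENCODE ends can differ from the RefSeq ends that were counted. The 9 genes and the pathway lists were chosen with earlier results of these data known. Named were the 9 genes, Lmna, every tested list gene with an adjusted p below 0.05 or else the 1 with the smallest p, and the 3 genes most like the member with the smallest p. One gene stands in the lists under an older and a newer symbol (Sept4). Figures were drawn with matplotlib 3.10.9 in Python 3.11.15.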

Additional observations from a re-analysis of the deposited data

How the results depend on the processing

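The count of family members past an adjusted p of 0.05 was 0 under each alternative that kept all 6 libraries and without both melanocyte marker libraries, and between 0 and 1 higher and between 0 and 1 lower when 1 library was left out (Bcl2l1 and Bcl2l11, as given above). Their count by the study's criteria was 0 in every fit. The 4 other apoptosis genes called higher became 0 with a mean count of at least 50, which removes all 4 from the test, as did those meeting the study's criteria (0). Each of these counts ranged from 3 to 5 with 1 library left out. The 3 called lower were 0 in DESeq2, 1 with upper-quartile factors, 5 after the GC correction, 0 without both melanocyte marker libraries and 0 to 4 with 1 library left out, and the cause was not tested. The share called over all tested genes, 13.7% in the main fit, moved as well. It was 11.5% in DESeq2, 13.6% with upper-quartile factors and 16.8% after the GC correction. Without both melanocyte marker libraries it was 13.2%, and with 1 library left out it ran from 5.89% to 17.2%. Of the single genes, Xiap turned to -0.20 after the GC correction and to -0.16 with the replicate block as well, Mcl1 to -0.0049 without shLmna replicate 2 (-0.0049 to 0.31 over the left-out libraries), and Naip2 to -0.043 without both melanocyte marker libraries. The ratio difference ran from 0.54 to 0.81 with 1 library left out. With the replicate block, 0 members and 4 higher and 3 lower pathway genes were called, with Ywhaz in place of Pmaip1 among the lower ones, and Lmna was at -1.19. Same-numbered libraries deviated together at r = 0.35, -0.11 and 0.0052, and the labels do not say what a number shares. Lmna ran from -1.26 to -1.13 over all fits. Depth limits Bcl2 and Xiap most, at 3 to 26 UMIs a library.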
